A study of Mus musculus with 12 samples.

Results

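The 10 genes described here encode the core proteins that make microRNAs and carry out their silencing: Drosha, Dgcr8, Dicer1, Ago1, Ago2, Ago3, Ago4, Tnrc6a, Tnrc6b and Tnrc6c. They were taken by name, through the mouse symbols of the Ensembl identifiers, from the 36439 genes of each count table, and all 10 were found and had enough reads to be tested. RNA sequencing counted their transcripts in tumour-associated macrophages (TAMs), macrophages that live inside a solid tumour, with 12 libraries in all. The tumours were Lewis lung carcinoma, a transplantable lung tumour, placed subcutaneously in C57BL/6 mice. There were 4 groups with 3 libraries each. MRC1+ TAMs were F4/80+ cells carrying the mannose receptor MRC1, and CD11c+ TAMs were F4/80+ cells carrying the integrin CD11c. The other groups were F4/80+ TAMs overexpressing either the microRNA miR-511-3p or a mutated form of it. Their titles bear the prefix SFFV, which the labels do not explain. No age, tumour size or number of mice per library is given. The replicates carry numbers, but no label ties them to separate animals, so the p-values below reflect the spread among these libraries and that spread may be technical.

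A microRNA is cut out of its long primary transcript in the nucleus by the Microprocessor, a complex of the ribonuclease Drosha with its RNA-binding partner Dgcr8. The hairpin that results is exported and cut again in the cytoplasm by the ribonuclease Dicer1. A single strand is then loaded into an Argonaute protein, and the Argonaute recruits a GW182 scaffold protein, Tnrc6a, Tnrc6b or Tnrc6c, which brings in the enzymes that shorten the poly(A) tail and remove the cap of the target mRNA. All 4 mouse Argonautes bind microRNAs, and Ago2 is the member known for cutting a fully paired target itself. Expression of an Argonaute or GW182 gene can itself be lowered by microRNAs that pair with its 3′ UTR.

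The microRNA altered in the overexpression groups and its matches in these genes are shown as a description. Whether a match acts on its gene was not tested. The mature miR-511-3p sequence, from RefSeq, lies at chr2:14261051-14261072 on the plus strand of GRCm38.p6, in the hairpin gene Mir511 within an intron of Mrc1. Its seed, bases 2 to 8, is in capitals.
mmu-miR-511-3p: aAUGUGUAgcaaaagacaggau

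Matches to the seed were searched on the sense strand of the longest annotated 3′ UTR of each gene (GENCODE M21, GRCm38). A match was TACACATA (an 8mer), TACACAT (a 7mer-m8) or ACACATA (a 7mer-A1). A 7mer that is part of an 8mer was not counted again. Of the 10 genes, 3 held a match, with 8 matches in all: Dgcr8 held 2, Ago3 held 3 and Tnrc6b held 3. The matched letters are in capitals, with up to 9 bases on either side.
Dgcr8 site 1: actacacagTACACATgcaaagaag
Dgcr8 site 2: atggtctgaACACATAaaactgtcc
Ago3 site 1: cctatgttcACACATAtggttcact
Ago3 site 2: tgaccttcaTACACATgccatggca
Ago3 site 3: ggcatggtcACACATAcctttaatc
Tnrc6b site 1: tgaagcaagTACACATAccatttaaa
Tnrc6b site 2: tgcacatacACACATAcatataaat
Tnrc6b site 3: tttgttttaTACACATtataagcat

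Tnrc6b site 1 was the only 8mer among them, and it started at base 283 of a 3′ UTR of 11609 bases. The other Tnrc6b matches started at bases 2939 and 4632. In Ago3, whose 3′ UTR of 12742 bases was the longest of the 10, they started at bases 649, 4561 and 9608. In Dgcr8, with 1574 bases, they started at bases 151 and 1550. Of 19632 genes with a 3′ UTR, 19.55% held at least 1 match, but long 3′ UTRs hold one far more often. Among genes whose 3′ UTR was within 20% of the same length, the share was 85.2% for Tnrc6b (61 genes), 90% for Ago3 (40 genes) and 22.3% for Dgcr8 (2730 genes). Ago2 held none in 11064 bases, a length at which 84.3% of 70 genes held one. Drosha, Dicer1, Ago1, Ago4, Tnrc6a and Tnrc6c also held none in 3′ UTRs of 169 to 4491 bases. A match is a description of letters and not a proven site.

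Reads counted to genes per library ranged from 15664146 to 17689064 for MRC1+ TAMs, from 10824918 to 17318957 for CD11c+ TAMs, from 23326219 to 27186233 in miR-511-3p TAMs and from 22906418 to 27890433 in mutated miR-511-3p TAMs. The 10 genes had 211 to 2692 reads each per library in the sorted groups and 488 to 4748 in the overexpression groups. The genes of the gates followed the labels: Mrc1 averaged 3777 CPM (counts relative to the scaled library total) in MRC1+ TAMs and 1615 CPM in CD11c+ TAMs, and Itgax, which encodes CD11c, 102 and 988 CPM. Adgre1, which encodes F4/80, had 1028 to 1230 CPM in MRC1+ TAMs, against 568 to 770.2 CPM in CD11c+ TAMs, and 1031 to 1371 CPM in miR-511-3p TAMs, against 1068 to 1124 CPM in mutated miR-511-3p TAMs. Mir511 had 66, 63 and 80 reads in the miR-511-3p libraries, against 3, 9 and 5 in the mutated ones, and 16, 11 and 12 reads in MRC1+ TAMs, against 5, 3 and 0 in CD11c+ TAMs. No label says whether reads of the mutated hairpin align to Mir511. Of 8 dendritic cell markers all 8 were lower in MRC1+ TAMs, with a summed level of 117 to 159 CPM per library, against 1241 to 1529 CPM in CD11c+ TAMs. None of the 8 was at 0 in every library, and Itgax, a gene of the gate, is among them. The summed level of 9 fibroblast markers was 732 to 977 CPM in MRC1+ TAMs, and 1310, 318 and 372 CPM in the 3 CD11c+ libraries, so the first CD11c+ library stood apart, and none of the 9 passed the test. Of 6 epithelial and carcinoma markers 4 were higher and 2 lower in MRC1+ TAMs, of 5 endothelial markers tested 1 was higher and 3 lower, and of 8 mitochondrially encoded genes tested 2 were higher. Of 9 macrophage markers, Mrc1 among them, 3 were higher, with a summed level of 12523 to 15621 CPM in MRC1+ TAMs, against 9547 to 11906 CPM in CD11c+ TAMs. Of 8 T and NK cell markers tested 2 were lower, with 7.90 to 10.2 CPM in sum in MRC1+ TAMs, against 15.1 to 23.4 CPM in CD11c+ TAMs. Of 4 neutrophil markers tested 1 was lower, and of 3 B cell markers tested none passed. Their part in the results below was not tested.

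The levels of the 10 genes can be set against each other only per length, here as FPKM, the counts divided by exon length in kilobases and by the scaled library total. Within the sorted TAMs, Ago2 was the highest at 8.90 ± 1.45 FPKM in MRC1+ TAMs and 9.998 ± 0.678 FPKM in CD11c+ TAMs (SD, n = 3 each). Ago4 was the lowest at 3.11 ± 0.14 and 3.38 ± 0.28 FPKM. The order depends on the length used. Divided by the longest transcript in place of all exons, Tnrc6a was the highest, at 11.7 FPKM in MRC1+ TAMs and 11.4 FPKM in CD11c+ TAMs. Ago2 then had 9.05 and 10.2 FPKM, and Ago4 was still the lowest. The values below use all exons unless stated. The median of 15575 genes was 4.96 FPKM in MRC1+ TAMs and 4.92 FPKM in CD11c+ TAMs. The pathway genes thus lay around the level of a typical measured gene, with Ago2, Ago1 and Tnrc6a the furthest above it in both sorted groups.

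In MRC1+ TAMs the order was Ago2, Ago1 (7.90 ± 0.59 FPKM), Tnrc6a (7.53 ± 0.86), Ago3 (6.41 ± 0.50), Drosha (6.21 ± 0.81), Dgcr8 (4.66 ± 0.15), Dicer1 (4.53 ± 0.37), Tnrc6b (4.52 ± 0.61), Tnrc6c (4.06 ± 0.42) and Ago4. Neighbours in that order overlapped between libraries except Drosha and Dgcr8, and Tnrc6c and Ago4. By the longest transcript Dgcr8 stood above Drosha in MRC1+ TAMs, at 8.30 and 8.06 FPKM. In CD11c+ TAMs Tnrc6a (7.33 ± 0.45 FPKM) and Ago1 (7.25 ± 0.24) followed Ago2, with no overlap between Ago2 and Tnrc6a. The other 7 genes lay between 4.96 FPKM (Ago3) and 3.38 FPKM (Ago4), Drosha at 4.31 ± 0.72 and Dgcr8 at 3.72 ± 0.43 among them.

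In the overexpression experiment Ago1 led by all exons, at 12.9 ± 0.41 FPKM in miR-511-3p TAMs and 12.8 ± 0.75 FPKM in mutated miR-511-3p TAMs. By the longest transcript Tnrc6a led, at 18.4 and 17.3 FPKM, against 14.5 and 14.4 FPKM for Ago1. By all exons Tnrc6a stood at 11.8 ± 0.56 and 11.1 ± 0.68 FPKM, and Ago2 at 11.73 ± 0.73 and 11.99 ± 0.61 FPKM. Drosha stood at 8.10 ± 0.63 and 8.67 ± 0.30 FPKM. Each of these 4 genes was higher in all 6 overexpression libraries than in all 6 sorted libraries, as was Dicer1, at 5.35 ± 0.19 and 5.37 ± 0.16 FPKM. The share of all genes separated in this way was not counted, so the separation is not a result about these genes. Tnrc6b was at 3.68 ± 0.25 FPKM in miR-511-3p TAMs and 4.33 ± 0.10 FPKM in mutated miR-511-3p TAMs, its lowest and its second highest group mean of the 4. The other 4 genes had group means of 3.59 to 6.16 FPKM and 3.48 to 6.26 FPKM. No test was made across the experiments, and the share of reads falling over no gene was 19.7% to 26.6% in the sorted libraries and 7.64% to 10.4% in the overexpression libraries. The cells, the overexpression and the library preparation cannot be told apart here.

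**Figure D1:**
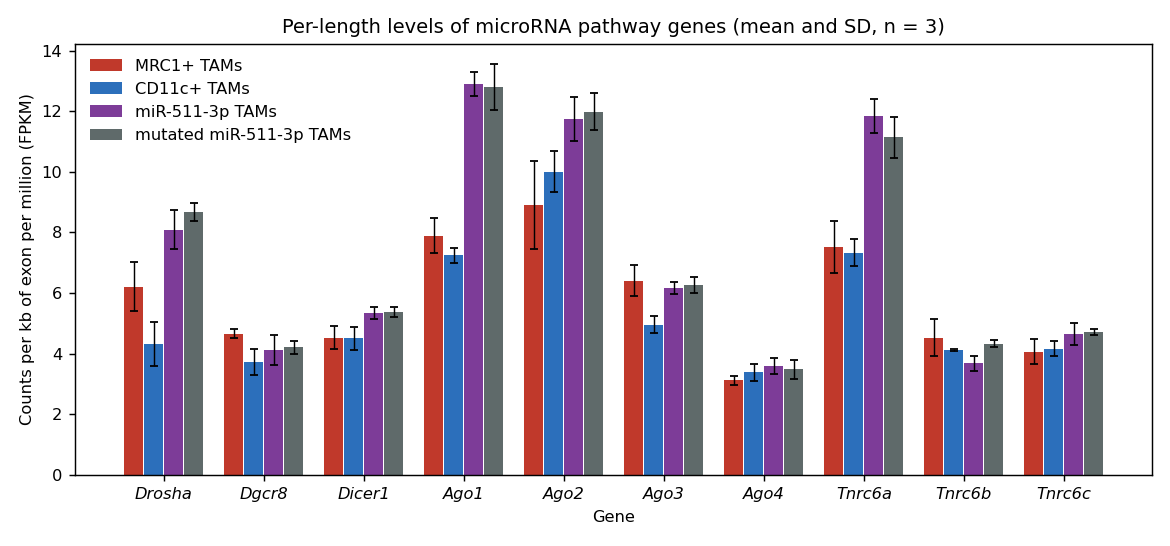
Bars give the mean level of each gene in FPKM (counts over exon length and scaled library total) in the 4 groups, with error bars of 1 SD over 3 libraries. Ago1, Ago2 and Tnrc6a reach 11.1 to 12.9 FPKM in the overexpression groups, and Ago4 is the lowest gene in each group, at 3.11 to 3.59 FPKM.

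The first comparison asked how the machinery differed between the TAM populations sorted on MRC1 and on CD11c. Drosha and Ago3 were higher in MRC1+ TAMs, by 1.44-fold and 1.29-fold, and no gene of the 10 was lower. Dgcr8, the partner of Drosha, did not pass the test, at 1.25-fold. Dicer1 and the 3 GW182 genes had log2 fold changes between -0.03 and 0.14, none past the test. In all, 2 of 10 genes (20%) passed the quasi-likelihood test of edgeR, at 0.05 after Benjamini-Hochberg adjustment over all genes, where 16.6% of the 15622 genes tested passed, 6.91% as higher and 9.71% as lower. An unadjusted p under 0.05 was found for 3 of the 10 and for 33.3% of all genes. The share is near that of the genes at large. The median log2 fold change of the 10 was 0.08, and the median of its size 0.13, against 0.25 over all genes. The 10 were also measured with less noise, at a median standard error of 0.10, against 0.15 over all genes.

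Drosha, the nuclease of the Microprocessor, had 33.0, 42.7 and 39.9 CPM in MRC1+ TAMs, against 28.2, 30.3 and 21.7 CPM in CD11c+ TAMs. All MRC1+ libraries lay above all CD11c+ libraries. The log2 fold change was 0.52 ± 0.15 (SE, 95% interval 0.18 to 0.86), with an adjusted p of 0.0465 by edgeR. Dgcr8, its partner, had 36.2, 38.5 and 37.8 CPM in MRC1+ TAMs, against 31.5, 32.2 and 25.9 CPM in CD11c+ TAMs. Its groups did not overlap either. The log2 fold change of Dgcr8 was 0.32 ± 0.10 (95% interval 0.08 to 0.56), with an edgeR adjusted p of 0.0702. The third CD11c+ library was the lowest of its group for both genes, and also for Dicer1, Ago1, Ago3 and Ago4. It had the fewest counted reads of all libraries, 10824918. Without it the log2 fold changes were 0.41 for Drosha and 0.25 for Dgcr8. Of the exon bases of Dgcr8, 17.1% are shared with other annotated genes. Trmt2a on the opposite strand is among them, and its own log2 fold change was 0.02 (edgeR adjusted p 0.911). No label states the counting mode or whether counting used strand, so how reads of the shared stretch were counted is not known.

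Dicer1, the cytoplasmic nuclease, had 72.4, 85.2 and 80.4 CPM in MRC1+ TAMs, against 82.1, 82.9 and 71.3 CPM in CD11c+ TAMs. The ranges of the groups overlapped over most of their length. The log2 fold change was 0.01 ± 0.10, and its 95% interval of -0.22 to 0.24 leaves out changes larger than that in either direction. Within each library, the log2 ratio of Drosha to Dicer1 per length was 0.36 to 0.50 in the MRC1+ group, against -0.22 to 0.04 in the CD11c+ group. That ratio does not depend on library scaling, and its groups did not overlap. The ratio of Drosha to Dgcr8 did overlap, at 0.24 to 0.52 in the MRC1+ group, against 0.12 to 0.29 in the CD11c+ group. These ratios carry no test.

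Among the Argonautes, Ago3 had 102, 111 and 119.6 CPM in MRC1+ TAMs, against 88.7, 88.3 and 80.3 CPM in CD11c+ TAMs. Each MRC1+ library exceeded each CD11c+ library. The log2 fold change was 0.37 ± 0.09 (95% interval 0.16 to 0.58), with an edgeR adjusted p of 0.0283. Ago1 had 64.4, 72.8 and 64.1 CPM in MRC1+ TAMs, against 63.5, 61.3 and 59.5 CPM in CD11c+ TAMs. Its groups were separate by a narrow margin, and its log2 fold change of 0.13 ± 0.09 did not pass (edgeR adjusted p 0.343). Non-overlap upwards was thus found for 4 of the 10 genes, Drosha, Dgcr8, Ago1 and Ago3, and for 18.7% of all genes tested, and downwards for none of the 10 and 19.6% of all genes (38.3% in either direction).

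Ago2, the slicing Argonaute, had 106, 142 and 144 CPM in MRC1+ TAMs, against 135, 152 and 153 CPM in CD11c+ TAMs. The first library was the lowest in both groups, and the groups overlapped. The log2 fold change was -0.16 ± 0.13 (95% interval -0.46 to 0.13), with an edgeR adjusted p of 0.411. Ago4, the lowest Argonaute per length, had 22.4, 23.7 and 21.8 CPM in MRC1+ TAMs, against 25.1, 26.15 and 22.2 CPM in CD11c+ TAMs. Its log2 fold change of -0.12 ± 0.10 did not pass either (edgeR adjusted p 0.452). Ago3, Ago1 and Ago4 stand next to each other on chromosome 4, all on the minus strand, with 0 protein-coding genes between them, yet their log2 fold changes ran from 0.37 to -0.12. The log2 ratio of Ago3 to Ago4 per length was 1.04 ± 0.15 in MRC1+ TAMs and 0.55 ± 0.05 in CD11c+ TAMs (SD, n = 3 each), without overlap. That ratio carries no test.

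As a share of the summed Argonaute level per length, Ago2 made up 30.4%, 34.6% and 36.0% in the MRC1+ libraries, against 36.4%, 39.4% and 41.4% in the CD11c+ libraries. The MRC1+ libraries had an Ago3 share of 23.0% to 25.3%, the CD11c+ libraries of 18.5% to 20.3%. The Argonaute mixture of MRC1+ TAMs thus held a lower Ago2 share and a higher Ago3 share, with no overlap for either gene. These shares sum chosen genes and carry no test.

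None of the GW182 scaffold genes passed the test between the populations. Tnrc6a had 88.1, 110.6 and 101 CPM in MRC1+ TAMs, against 93.4, 104 and 94.1 CPM in CD11c+ TAMs, a log2 fold change of 0.04 ± 0.10. Tnrc6b had 95.3, 124 and 116 CPM in MRC1+ TAMs, against 101, 102 and 103 CPM in CD11c+ TAMs, a log2 fold change of 0.14 ± 0.11. Tnrc6c had 48.1, 58.3 and 57.2 CPM in MRC1+ TAMs, against 52.9, 59.6 and 54.9 CPM in CD11c+ TAMs, a log2 fold change of -0.03 ± 0.10. All 3 overlapped between the groups, with edgeR adjusted p of 0.418 to 0.859. Tnrc6a made up 46.7% ± 0.62 of the summed GW182 level per length in MRC1+ TAMs and 46.9% ± 0.82 in CD11c+ TAMs.

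**Figure D2:**
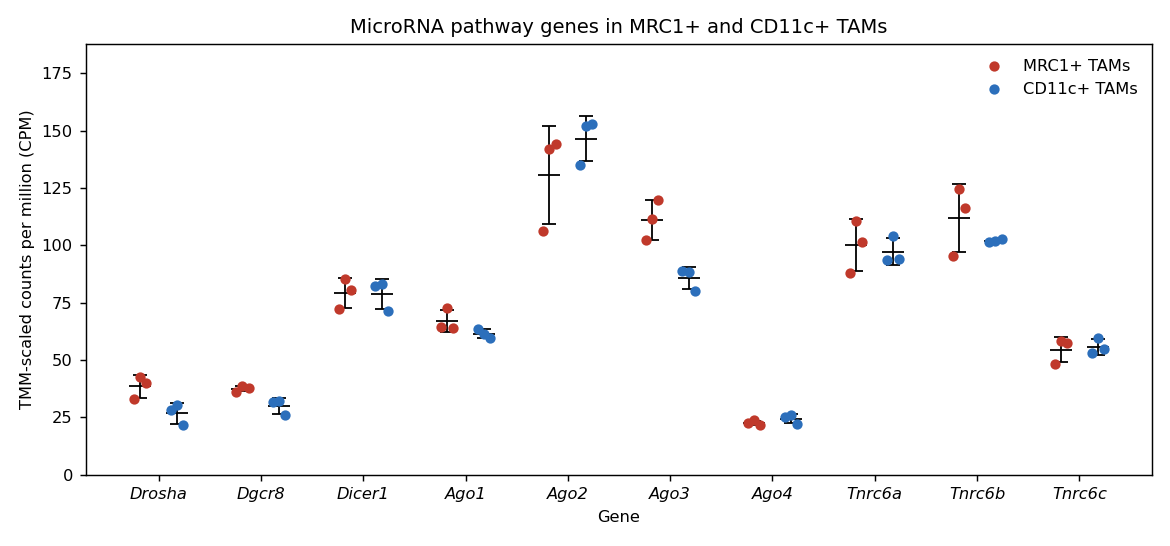
Points give the TMM-scaled CPM of each gene in each sorted library, with the mean and 1 SD of 3 libraries per group. Drosha, Dgcr8, Ago1 and Ago3 have all MRC1+ points above all CD11c+ points, while the points of the other 6 genes overlap.

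The calls of Drosha and Ago3 rested on the full set of libraries. Both were lost when replicate 2 or replicate 3 of either group was left out, with adjusted p up to 0.179 for Drosha and 0.134 for Ago3, the fold change staying above 0. Without the first CD11c+ library the log2 fold changes were 0.55 for Drosha (edgeR adjusted p 0.0349) and 0.39 for Ago3 (0.0174), and Dgcr8 passed as well (0.0427). That fit called 4707 of all genes, against 2597 with all libraries. The part of the dendritic cell and fibroblast markers in the Drosha, Ago3 and Dgcr8 differences was not tested. In bulk RNA a change in the number of cells of a type and in RNA per cell cannot be told apart.

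Other genes of the pathway were taken in 7 lists of 82 genes, of which 81 were found and 78 were tested in this comparison. Of these, 1 rose and 6 fell in MRC1+ TAMs, together 8.97%, against 16.6% of all genes tested. With the replicate number as a block the count was 12, of which 2 rose and 10 fell. The same fit called 2788 of the 15622 genes tested, 1131 higher and 1657 lower. The 12 list genes were the same 7 and 5 more, Adar, Fkbp4, Tob2, Pnrc1 and Zc3h12a. In the lists of Microprocessor cofactors and export (10 tested), of Dicer partners and RISC loading (12), of decapping (12) and of microRNA tailing and turnover (10), none passed without the block and 1 passed in each with it. The genes of lowest p without the block were Adar, Snd1, Pnrc1 and Zc3h12a. Adar, the adenosine-to-inosine RNA editing enzyme, had a log2 fold change of -0.32 ± 0.10 (edgeR adjusted p 0.0753 without the block and 0.0460 with it). Snd1, a Tudor-domain nuclease found with RISC, had -0.18 ± 0.08 (0.155 without the block and 0.153 with it), and Fkbp4, a co-chaperone of the same list, 0.34 ± 0.16 (0.182 without and 0.0430 with it). Pnrc1 had -0.36 ± 0.13 (0.0908 without the block and 0.0286 with it). Zc3h12a, an RNase that degrades inflammatory mRNAs, had -0.76 ± 0.26 (0.0792 without the block and 0.00849 with it).

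The list of deadenylation, the tail-shortening step that GW182 proteins call in, held 3 of the 6 genes that fell. That was 3 of 17 tested, where 9.71% of all genes tested passed as lower. Of the Cnot and Pan genes of the list only Cnot6l passed. Btg2, an antiproliferative protein that binds the CCR4-NOT deadenylase, had 254, 259 and 370.4 CPM in MRC1+ TAMs, against 607, 693 and 908 CPM in CD11c+ TAMs. Its highest MRC1+ library lay well below its lowest CD11c+ library, and the log2 fold change was -1.32 ± 0.20 (edgeR adjusted p 0.00318). Its relative Btg1 fell by 0.74 ± 0.19 on the log2 scale, with 319 to 417 CPM in MRC1+ TAMs, against 473 to 774 CPM in CD11c+ TAMs (edgeR adjusted p 0.0357). Cnot6l, a catalytic deadenylase subunit of CCR4-NOT, had 129, 131 and 123 CPM in MRC1+ TAMs, against 169.6, 168 and 156 CPM in CD11c+ TAMs. It fell by 0.36 ± 0.08 on the log2 scale (edgeR adjusted p 0.0181), and its groups did not overlap. Tob2, a relative of Btg1 and Btg2, had a log2 fold change of -0.67 ± 0.20 and passed with the block but not without it (edgeR adjusted p 0.00771 with and 0.0603 without it).

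Among 15 RISC cofactors, 1 rose and 2 fell, where 6.91% of all genes tested passed as higher and 9.71% as lower. Ddx6, a DEAD-box helicase that acts downstream of GW182 in silencing, fell by 0.46 ± 0.10 on the log2 scale, with 196 to 241 CPM in MRC1+ TAMs, against 289.7 to 315 CPM in CD11c+ TAMs (edgeR adjusted p 0.0183). Limd1, a LIM-domain protein that human cell studies tie to Argonaute, had 152 to 156 CPM in MRC1+ TAMs, against 195 to 200.03 CPM in CD11c+ TAMs, and a log2 fold change of -0.36 ± 0.07 (edgeR adjusted p 0.0149). Wtip, of the same protein family, went the other way at a far lower count, with 4.41, 4.11 and 5.67 CPM in MRC1+ TAMs, against 2.29, 2.14 and 0.93 CPM in CD11c+ TAMs. Its log2 fold change was 1.34 ± 0.30 (edgeR adjusted p 0.0207). The groups of all 3 genes were separate.

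Piwil2, a PIWI protein known for its germline role with piRNAs, was measured in every library. It had 12.8, 11.2 and 10.3 CPM in MRC1+ TAMs, against 19.1, 27.7 and 23.98 CPM in CD11c+ TAMs. The groups did not overlap, and the log2 fold change was -1.04 ± 0.16 (edgeR adjusted p 0.00389). Piwil4 did not pass, and Piwil1 had no read in any library. Btg2 and Piwil2 passed in each of the 6 fits that left out 1 library. Btg1, Ddx6, Cnot6l, Limd1 and Wtip each failed in 2 to 4 of them, with adjusted p up to 0.124. With plain library totals Ddx6, Limd1 and Cnot6l failed as well (0.0735, 0.103 and 0.137), and the split of list genes was 2 higher and 3 lower. There were 15 list genes that passed without the first CD11c+ library but 2 without the second. Over all genes 4707 passed without the first and 1490 without the second. The part of the dendritic cell markers in these differences was not tested.

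**Figure D3:**
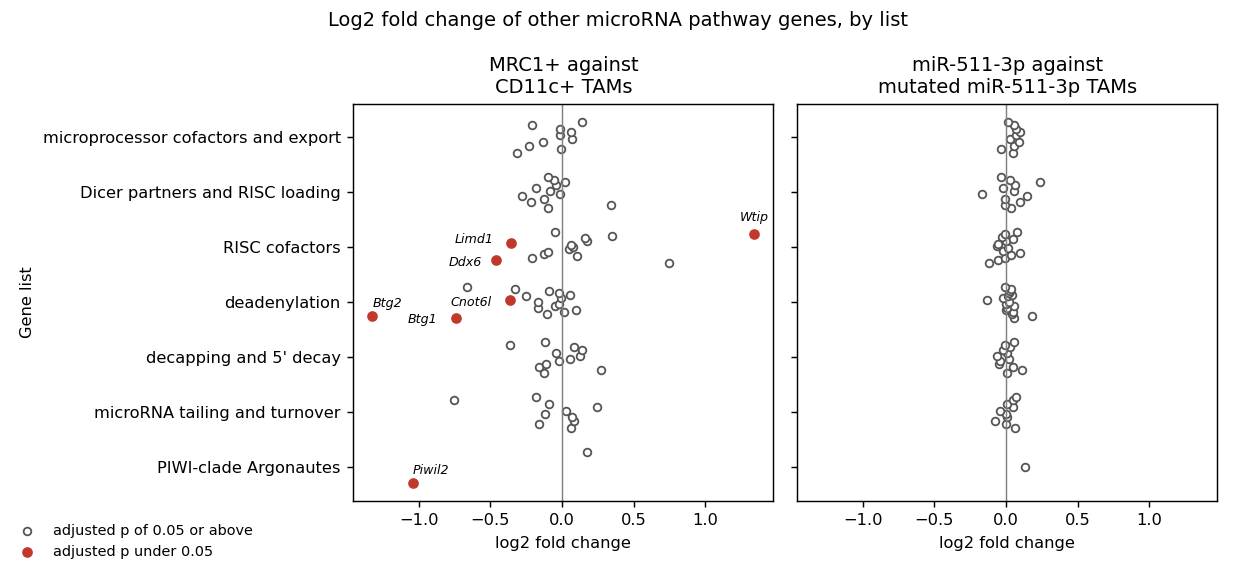
Each point is 1 other gene of the microRNA pathway, by list, with its log2 fold change in MRC1+ against CD11c+ TAMs on the left and in miR-511-3p TAMs against mutated miR-511-3p TAMs on the right. Filled points passed at an adjusted p under 0.05 and are 1 higher and 6 lower on the left and none on the right.

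The second comparison asked what overexpressed miR-511-3p did to the machinery it works through. None of the 10 genes passed, and neither did any of the 14054 genes tested (0%) by edgeR, of which 2.44% had an unadjusted p under 0.05. Mir511 did not pass either, at a log2 fold change of 3.56 ± 0.39. Its edgeR p was 3.43e-05 unadjusted and 0.482 adjusted. Whether reads of the mutated hairpin align to Mir511 was not tested. A lack of calls alone does not show a lack of difference in this comparison. Tnrc6b was the gene of the 10 that differed most, lower by a log2 fold change of -0.23, and the other 9 lay between -0.09 and 0.09 on that scale. DESeq2 called 1 gene of all tested and none of the 10. The median size of the log2 fold change was 0.02 over the 10 genes, against 0.07 over all genes. Their median standard error was lower as well, at 0.07, against 0.11 over all genes. The standard errors of the 10 were 0.05 to 0.10, so their 95% intervals exclude log2 fold changes beyond -0.38 and 0.26.

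Tnrc6b, the scaffold gene with the 8mer match printed above, had 78.1, 84.6 and 88.1 CPM in miR-511-3p TAMs, against 95.6, 96.5 and 102 CPM in mutated miR-511-3p TAMs. All miR-511-3p libraries lay below all mutated ones. The log2 fold change was -0.23 ± 0.06 (SE, 95% interval -0.38 to -0.08), a level 0.853 times that with the mutated form. Its unadjusted p was 0.00907 and its edgeR adjusted p 0.99988, so it did not pass, and the adjusted p was 0.337 with the replicate number as a block. It was the only member whose groups did not overlap, 1 of 10, where 6.38% of all genes had groups without overlap, 3.59% lower and 2.79% higher. An unadjusted p under 0.05 with a lower level was found for 1 of the 10 and 1.86% of all genes.

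The other GW182 genes did not share this pattern. Tnrc6a, with no match in its 3′ UTR, had 140.3, 142 and 151 CPM in miR-511-3p TAMs, against 136, 125 and 144 CPM in mutated miR-511-3p TAMs. Its groups overlapped, with a log2 fold change of 0.09 ± 0.07. Tnrc6c, also without a match, had 53.4, 57.1 and 61.3 CPM in miR-511-3p TAMs, against 57.6, 56.4 and 59.7 CPM in mutated miR-511-3p TAMs, and a log2 fold change of -0.02 ± 0.07. Tnrc6b made up 18.2% ± 0.39 of the summed GW182 level per length in miR-511-3p TAMs and 21.5% ± 0.67 in mutated miR-511-3p TAMs (SD, n = 3 each). The log2 ratio of Tnrc6b to Tnrc6a per length, which library scaling does not touch, was -1.74, -1.65 and -1.67 in miR-511-3p TAMs, against -1.41, -1.28 and -1.40 in mutated miR-511-3p TAMs, without overlap.

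Ago3 and Dgcr8, which hold only 7mer matches, overlapped between the groups. Ago3 had 101, 94.3 and 98.9 CPM in miR-511-3p TAMs, against 93.7, 101 and 103 CPM in mutated miR-511-3p TAMs. Its log2 fold change was -0.02 ± 0.06 (95% interval -0.16 to 0.13). Dgcr8 had 26.4, 33.0 and 31.8 CPM in miR-511-3p TAMs, against 29.95, 32.5 and 30.3 CPM in mutated miR-511-3p TAMs. Its first miR-511-3p library was the lowest of the 6, and the log2 fold change was -0.02 ± 0.10. Across the 3 genes with a match the log2 fold changes were thus -0.23, -0.02 and -0.02, and across the 7 without one they ran from -0.09 to 0.09. The part of the matches in these values was not tested.

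Drosha, with no match, had 42.4, 47.6 and 48.3 CPM in miR-511-3p TAMs, against 47.4, 50.8 and 49.3 CPM in mutated miR-511-3p TAMs. The groups overlapped, with a log2 fold change of -0.09 ± 0.07. Dicer1 had 86.0, 83.2 and 88.4 CPM in miR-511-3p TAMs, against 87.6, 86.2 and 84.1 CPM in mutated miR-511-3p TAMs. It was the closest to no difference, with a 95% interval of the log2 fold change of -0.13 to 0.12.

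Ago2, which can load the overexpressed microRNA, had 149, 158 and 166 CPM in miR-511-3p TAMs, against 169, 158 and 156 CPM in mutated miR-511-3p TAMs. Its values overlapped, with a log2 fold change of -0.03 ± 0.07 (95% interval -0.18 to 0.13). Ago1 had 98.7, 99.6 and 103 CPM in miR-511-3p TAMs, against 99.5, 104 and 94.2 CPM in mutated miR-511-3p TAMs. Ago4 had 23.7, 22.5 and 25.6 CPM in miR-511-3p TAMs, against 23.9, 24.5 and 20.8 CPM in mutated miR-511-3p TAMs. Neither was separate between the groups, and their log2 fold changes were 0.02 ± 0.06 and 0.05 ± 0.09. Ago2 made up 34.1% ± 0.98 of the Argonaute level per length in miR-511-3p TAMs and 34.7% ± 1.33 in mutated miR-511-3p TAMs.

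**Figure D4:**
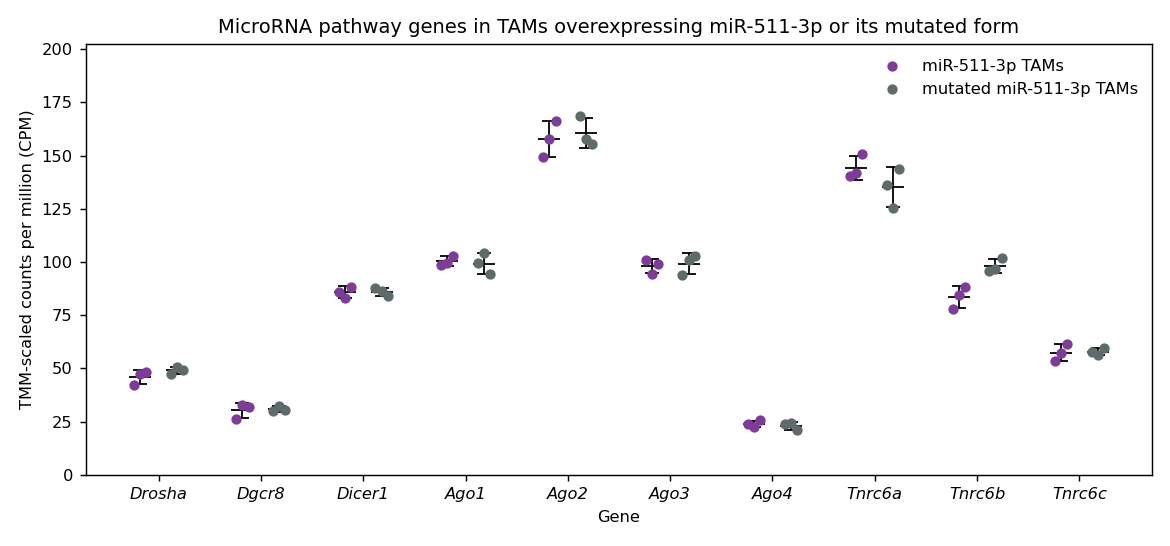
Points give the TMM-scaled CPM of each gene in each overexpression library, with the mean and 1 SD of 3 libraries per group. Tnrc6b is the only gene whose miR-511-3p points, at 78.1 to 88.1 CPM, all lie below its mutated miR-511-3p points, at 95.6 to 102 CPM.

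Of the other pathway genes 76 were tested here, none passed by edgeR or by DESeq2, and none had an unadjusted p under 0.05 by edgeR, where 2.44% of all genes did. The lowest p was that of Tarbp2, the double-stranded RNA-binding partner of Dicer1, which had 15.3, 15.1 and 15.0 CPM in miR-511-3p TAMs, against 13.5, 11.0 and 13.9 CPM in mutated miR-511-3p TAMs. Its groups did not overlap, and its log2 fold change was 0.24 ± 0.11 (edgeR unadjusted p 0.0572). The other lists were led by Ran at 0.10 ± 0.06, Fmr1 at 0.10 ± 0.08, Dcp1b at 0.11 ± 0.11 and Piwil2 at 0.13 ± 0.15 above 0, and by Cnot6l at -0.13 ± 0.08 and Parn at -0.08 ± 0.06 below 0, all as log2 fold changes with an edgeR adjusted p of 0.99988. Fibroblast markers summed to 90.9, 92.0 and 278 CPM in miR-511-3p TAMs, against 188, 177 and 706 CPM in mutated miR-511-3p TAMs. None of the 9 passed, as no gene did here, but 3 had an edgeR unadjusted p under 0.05. Their median log2 fold change was -1.42. The medians were -1.37 for T and NK cell, -1.05 for neutrophil, -0.88 for epithelial and -0.42 for B cell markers. They were -0.15 for dendritic cell, 0.09 for macrophage and 0.03 for endothelial markers. The part of these markers in the Tnrc6b values was not tested.

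**Figure D5:**
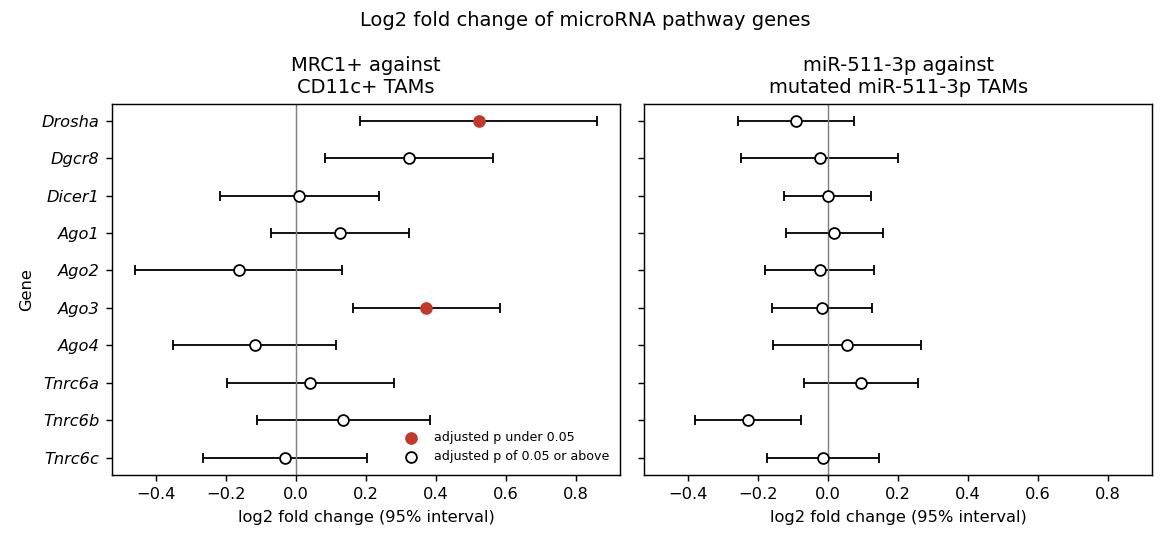
Points give the log2 fold change of each of the 10 genes with its 95% interval, in MRC1+ against CD11c+ TAMs on the left and in miR-511-3p TAMs against mutated miR-511-3p TAMs on the right. Filled points passed at an adjusted p under 0.05 and are Drosha and Ago3 on the left, and the interval of Tnrc6b on the right lies below 0 although it did not pass after adjustment.

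The genes whose levels moved most like a pathway gene over the 12 libraries were found by Pearson correlation of log2 CPM, after the mean of each experiment was removed, among 9459 genes. Drosha was closest to Peak1 (r = 0.97), Cep162 (0.95) and Tsc2 (0.95). Dicer1 was closest to Gid8 (0.94), Nek4 (0.92) and Zfp142 (0.92). Ago2 was closest to Ssh1 (0.93), Nfyc (0.93) and Zc3h13 (0.93), and Tnrc6a to Cdk16 (0.91), Srrm2 (0.87) and S100pbp (0.85). These are the highest of many values from 12 libraries that share depth and group differences, and are given as a description.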

How the data were processed

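Libraries came from an Illumina TruSeq RNA kit with heat-fragmented RNA, per the labels' protocols. The authors deposited raw read counts per Ensembl gene for each library. Bowtie, TopHat 1.2.0, SAMtools 0.1.12a, HTSeq and build mm9 (NCBIM37) stand in the submitters' processing notes. Counting mode and strand use were not given in the sources used here. Besides its 36439 genes each table ends in 5 totals of reads given to no gene, left out of sizes and tests. Reads over no gene made up 7.64% to 26.6% of a library, and multiply aligned reads 12.8% to 20.1%.

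Samples were grouped by title. For both comparisons the 6 libraries concerned were fitted with edgeR 4.0.16 in R 4.3.3 (quasi-likelihood test, TMM scaling, filterByExpr), with Benjamini-Hochberg adjustment across all tested genes at 0.05. CPM come from the same fit. The SE is the size of the log2 fold change over the root of its F statistic, and 95% intervals multiply it by the t quantile. FPKM divide the counts by the exon union of GENCODE M21 on GRCm38, newer than the build counted on, with TMM factors of all 12 libraries. Symbols were found for 31819 identifiers. The miR-511-3p sequence is from RefSeq (GRCm38.p6), and the sites are from GENCODE M21 transcripts.

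The text names the 10 members, up to 4 genes of lowest p per pathway list among those that passed (otherwise 1), the 3 genes most like Drosha, Dicer1, Ago2 and Tnrc6a with a mean of at least 10 CPM, and Mir511, Mrc1 and Itgax. Adgre1, Fkbp4, Piwil1, Piwil4, Tob2 and Trmt2a were added after their values were seen. Members, lists and tests were all chosen with earlier results of these data known.

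Replicates differed beyond sampling noise in each group (chi-square per degree of freedom 10.0 to 36.4). To see whether replicate numbers pair libraries, their deviations from group means were correlated over genes. Same-numbered MRC1+ and CD11c+ libraries gave 0.104, 0.337 and 0.250, and same-numbered overexpression libraries 0.147, 0.258 and 0.462. Each exceeded 0.1, so the numbers may mark pairs, although the first miR-511-3p library was closer to the second mutated one (0.166). That rests on the data alone, and no label states it. The main fits used no pairing, and the replicate block was only an alternative. Alternatives were DESeq2 1.42.0, other scalings, filters and lengths, all 12 libraries in 1 fit, a replicate block and each library left out. In a simulation with 200 changed genes the test found 64.6% of 2-fold and 97% of 4-fold changes for MRC1+ against CD11c+ TAMs (15418 genes), and 67.7% and 95% for miR-511-3p TAMs against mutated miR-511-3p TAMs (13924 genes). Of its calls 8.52% were false in the first and 7.43% in the second, at a threshold of 0.05. The planted changes were larger than those of any of the 10 genes, so these shares do not give the power for them. In the data no gene passed under miR-511-3p, where the adjusted cut-off is stricter than with 200 changed genes.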

Additional observations from a re-analysis of the deposited data

How the results depend on the processing

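Each of the 10 genes had at least 211 reads in each library, and their 95% intervals span up to 0.34 on the log2 scale to either side. Plain library totals in place of TMM moved the median log2 fold change of all genes in the sorted comparison from 0.01 to 0.14 and the calls over all genes from 1080 higher and 1517 lower to 1636 higher and 1110 lower. With that shift Ago4 (0.0048) and Tnrc6c (0.0959) in MRC1+ against CD11c+ TAMs took a positive sign while staying below the median, and Tnrc6c also had a positive sign with upper-quartile factors (0.0198). Dicer1 changed sign with DESeq2 in the sorted comparison (-0.0039) and without a filter in the overexpression comparison (0.0041).

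Leaving out 1 library at a time gave log2 fold changes in MRC1+ against CD11c+ TAMs of -0.0574 to 0.0851 for Dicer1, -0.0489 to 0.1391 for Tnrc6a and -0.0943 to 0.0651 for Tnrc6c. In miR-511-3p TAMs against mutated miR-511-3p TAMs they were -0.0865 to 0.0669 for Dgcr8, -0.0254 to 0.0215 for Dicer1, -0.0187 to 0.0543 for Ago1, -0.0662 to 0.0138 for Ago2, -0.0611 to 0.0099 for Ago3, -0.0143 to 0.0992 for Ago4 and -0.0703 to 0.0335 for Tnrc6c. In the sorted comparison the same fits called 0 to 3 of the 10 genes, 2 to 15 of the other pathway genes and 1270 to 4707 of all genes (2597 with all 6 libraries). The cause was not tested.

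Drosha and Ago3 kept their sign in each of 14 alternatives and passed in 10 of them, with adjusted p of 0.0130 to 0.179 for Drosha and 0.00453 to 0.134 for Ago3. Dgcr8 passed in 3 of 14, with 0.0427 to 0.232. Tnrc6b under miR-511-3p kept its sign in each of 14 alternatives, with log2 fold changes of -0.27 to -0.18, and passed in none. The difference in the Ago2 share moved by less than 1 SD under each alternative. With the replicate block 2 members passed in the sorted comparison, as without it, and 12 other pathway genes in place of 7, and all 12 libraries in 1 fit called 13. Over all genes the block called 2788 and the fit of all 12 libraries 3325, in place of 2597. Under miR-511-3p the block, that joint fit and DESeq2 each called 1 gene of all tested, in place of 0 by edgeR (343 at an unadjusted p under 0.05). The block changed no other count of calls by over 1.5 times.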
